A study of Mus musculus with 12 samples.

Results

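The 10 genes described here belong to the antioxidant programme controlled by the transcription factor NRF2: Nfe2l2, Keap1, Hmox1, Nqo1, Gclc, Gclm, Gsr, Txnrd1, Srxn1 and Prdx1. They were chosen by gene symbol, and all 10 were found among the 12960 genes of the count table and passed the filter on low counts, which left 10822 genes. RNA was sequenced from bone marrow-derived macrophages (BMDMs) of wild-type (WT) mice and of AMPKβ1-/- mice, which lack the β1 subunit of the energy sensor AMPK in the whole body. The marrow was differentiated for 7 days in medium conditioned by L929 fibroblasts, and the cells then received vehicle (0.1% DMSO) or 10 µM PF-06409577 (PF), an activator of β1-containing AMPK complexes, for 6 h. There were 4 groups of 3 libraries each, namely WT with vehicle, WT with PF, AMPKβ1-/- with vehicle and AMPKβ1-/- with PF. The labels do not say whether the libraries of a group came from separate mice or cultures, so p values measure the spread between these libraries, which may be technical.

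NRF2, the product of Nfe2l2, is kept low by KEAP1, an adaptor that joins it to a ubiquitin ligase built on cullin 3. Oxidants and electrophiles modify cysteines of KEAP1, after which NRF2 accumulates, pairs with small MAF proteins and binds antioxidant response elements near its target genes. The targets include enzymes that make and recycle glutathione, enzymes of the thioredoxin and peroxiredoxin system, heme oxygenase and quinone reductase. Macrophages produce oxidants themselves and take up heme from red cells, and this programme is a known part of their defence.

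Because the members are named for this shared control, their promoters were searched for the core of the antioxidant response element, TGACNNNGC, on both strands. The windows reach from 250 bases before to 50 bases after a start site and were taken from RefSeq on GRCm38.p6. A window was given for 7 members, with 3 windows for Txnrd1, and none for Hmox1, Gclc or Gsr. The core was present in Nfe2l2, Gclm, Txnrd1, Srxn1 and Prdx1, which makes 5 members, while 12.4% of all 32851 windows and 14% of the 27025 genes with a window held it. A stricter form, with an A or a G on each side of the core, was present in Txnrd1 and Prdx1 and in 2.79% of all windows. A match is a description of the letters, not a measured binding site. The following 60 bases are shown for 4 of the 5 members with a match, 5′ to 3′ on the strand of the gene. The core or its reverse complement is in capitals. These 4 were picked with the results of these data known, and the stretch of Srxn1 is not shown.
Nfe2l2 (chr2:75704854-75704913, minus strand): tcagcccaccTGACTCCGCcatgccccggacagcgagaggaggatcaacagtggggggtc
Gclm (chr3:122245398-122245457, plus strand): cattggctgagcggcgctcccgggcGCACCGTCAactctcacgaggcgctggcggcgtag
Txnrd1 (chr10:82859089-82859148, plus strand): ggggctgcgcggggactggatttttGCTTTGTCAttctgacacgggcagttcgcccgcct
Prdx1 (chr4:116685441-116685500, plus strand): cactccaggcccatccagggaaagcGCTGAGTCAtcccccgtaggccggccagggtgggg
In Gclm, Txnrd1 and Prdx1 the core lay on the strand opposite to the gene, beginning at −134, −92 and −133 with the start site as 0. Of the 3 windows of Txnrd1 only that at chr10:82858956-82859255 held the core, and −92 counts from the start site of that window. In Nfe2l2 it lay on the strand of the gene and began at −240. The core of Srxn1, TGACCTAGC on the opposite strand, began at 28, after the start site. Neither Keap1 nor Nqo1 held the core in its window.

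The libraries held 8935610 to 14358200 counts, and values are given as CPM, the counts of a gene relative to the library size as scaled by TMM. Prkab1, the gene of AMPKβ1, was measured at 37.3 to 45.3 CPM in the 6 WT libraries and at 6.05 to 9.42 CPM in the 6 AMPKβ1-/- libraries. All 10 macrophage markers were tested, and their summed level lay between 25993 and 30795 CPM in the 12 libraries. Single markers changed. PF in WT BMDMs lowered 4 of the 10, among them Csf1r (−0.58 on the log2 scale) and Cd14 (−0.43), where 15.9% of all tested genes passed. AMPKβ1-/- against WT with vehicle gave 2 higher, Adgre1 (0.25) and Itgam (0.23), and 5 lower, among them Cd68 (−0.72) and Spi1 (−0.44). In that comparison 59.7% of all tested genes passed. Of the 10 lymphoid markers only Cd4 passed the filter, and it was lower in AMPKβ1-/- (5.65 to 6.58 CPM) than in WT libraries (12.7 CPM or more). Of the 10 granulocyte markers only Csf3r passed, with the others in the table at 7 counts or fewer, and of the 10 fibroblast markers only Col1a2 passed. The summed fibroblast markers reached 10.6 CPM in AMPKβ1-/- with vehicle replicate 1 and at most 2.75 CPM in AMPKβ1-/- with PF. The part of these marker levels in the results was not tested. Counts also depended on the GC content of the gene, and this dependence differed between the groups. The slope of log2 CPM, centred on the mean of the gene, per 10 points of GC content was 0.37 to 0.74 in WT with vehicle, −0.054 to 0.37 in WT with PF, −0.36 to −0.10 in AMPKβ1-/- with vehicle and −0.52 to −0.34 in AMPKβ1-/- with PF. Fold changes are therefore given from the TMM-scaled counts and, where a call or a direction differs, also with the trend in GC content and transcript length removed in each library. For the markers between the genotypes with vehicle, Cd68 (−0.39) and also Mrc1 (−0.83) were then called lower. Adgre1 (−0.00053), Itgam (0.14), Spi1 (0.0079), Cd14 (0.017), Csf1r (−0.15) and Fcgr1 (−0.14) did not pass. For PF in WT BMDMs, Csf1r (−0.41), Cd14 (−0.37), Itgam (−0.39) and also Adgre1 (−0.31) passed, while Spi1 (−0.13) did not.

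Levels of different genes were compared per kilobase of mean transcript length. In WT BMDMs with vehicle the order was Prdx1 at 247 ± 23.7, Hmox1 at 239 ± 16.9, Nfe2l2 at 54.5 ± 9.51, Keap1 at 54.1 ± 5.50, Txnrd1 at 44.2 ± 4.03 and Srxn1 at 41.6 ± 2.64 CPM per kb (SD, n = 3). Gclm at 15.4 ± 0.730, Gsr at 9.59 ± 0.770, Gclc at 5.41 ± 0.416 and Nqo1 at 2.22 ± 0.539 CPM per kb followed. The libraries of Prdx1 and Hmox1 overlapped, as did those of neighbours among Nfe2l2, Keap1, Txnrd1 and Srxn1, while the 4 lowest genes were separated from each other in every library. With the length of the longest transcript Prdx1 came to 171 and Gclm to 9.10 CPM per kb, which put them below Hmox1 and Gsr, and Txnrd1 came to 38.9, below Srxn1. Nqo1, with 26 to 63 counts per library, was the least precise member.

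**Figure D1:**
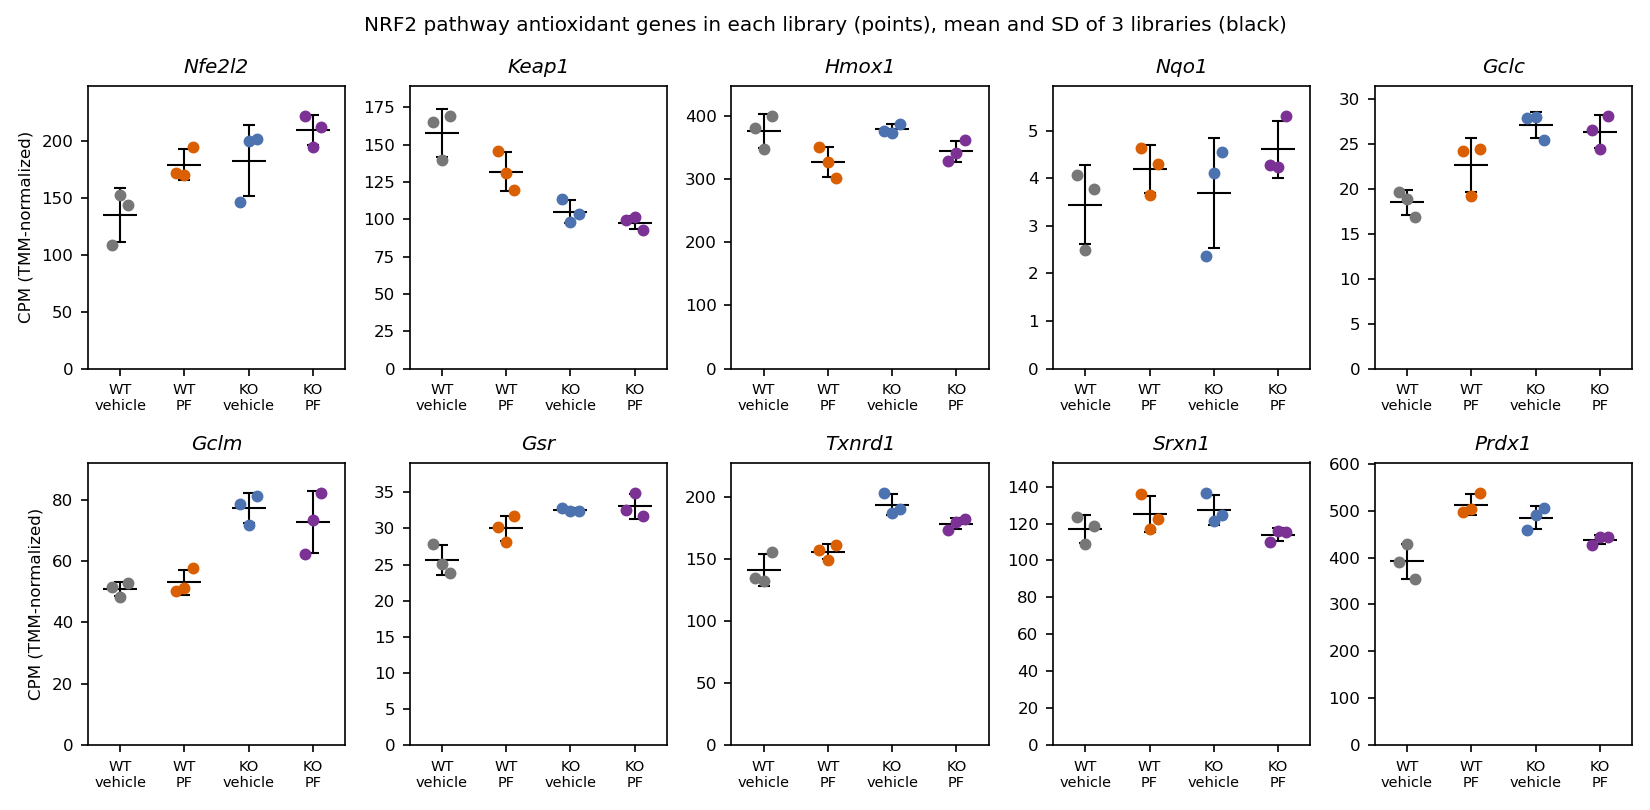
Level of each of the 10 genes (y axis, TMM-normalized CPM, starting at 0) in the 12 libraries of the 4 groups (x axis). Coloured points are libraries, black lines the mean and bars the SD of 3 libraries. Keap1 was lower in every AMPKβ1-/- library than in every WT library, Gclm and Txnrd1 were higher in every AMPKβ1-/- library, and Hmox1 overlapped between the genotypes.

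Treatment of WT BMDMs with PF changed 1 of the 10 genes. Prdx1 rose 1.31-fold, and the other 9 genes did not pass an adjusted p of 0.05, with log2 fold changes between −0.26 and 0.41. In this comparison 15.9% of all tested genes passed, 6.99% higher and 8.95% lower. Adjusted p values are from edgeR's quasi-likelihood test with Benjamini-Hochberg adjustment over the 10822 tested genes.

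Nfe2l2 (GRCm38 chr2:75675513-75704641) was measured at 108, 153 and 144 CPM in the 3 WT libraries with vehicle and at 172, 171 and 195 CPM in the 3 with PF. All 3 libraries with PF were above all 3 with vehicle, as they were for 14.2% of tested genes. The log2 fold change was 0.41 ± 0.13 (SE), with an adjusted p of 0.0537. It passed with DESeq2, limma-voom, DESeq2's size factors and library size alone, and without WT with vehicle replicate 2 (0.51), WT with PF replicate 1 (0.44) or AMPKβ1-/- with vehicle replicate 1 (0.41). It stood at 0.21 and did not pass after removal of the GC and length trend. Keap1 (chr9:21229730-21239361), its inhibitor, was measured at 165, 139 and 169 CPM with vehicle and at 146, 131 and 119 CPM with PF. The groups overlapped, the log2 fold change was −0.26 ± 0.094 with an adjusted p of 0.0687, and it was 0.019, on the other side of 0, with the trend removed. Without WT with vehicle replicate 2 or WT with PF replicate 1 it passed at −0.34.

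Hmox1 (chr8:75093621-75100589) encodes heme oxygenase 1, which breaks heme down to biliverdin, iron and carbon monoxide. It was measured at 381, 347 and 399 CPM with vehicle and at 351, 327 and 302 CPM with PF. These libraries overlapped, and the log2 fold change was −0.20 ± 0.078 with an adjusted p of 0.0823, passing without WT with vehicle replicate 2 (−0.26) or WT with PF replicate 1 (−0.25). Nqo1 (chr8:107388225-107403206), the quinone reductase often used as a readout of NRF2, was measured at 4.06, 2.49 and 3.78 CPM with vehicle and at 4.63, 3.65 and 4.31 CPM with PF. Its log2 fold change of 0.30 ± 0.25 had a 95% interval from −0.24 to 0.83.

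Gclc (chr9:77754535-77794485) and Gclm (chr3:122245557-122270732) encode the catalytic and the modifier subunit of glutamate-cysteine ligase, the first step of glutathione synthesis. Gclc was measured at 19.7, 18.9 and 16.9 CPM with vehicle and at 24.3, 19.2 and 24.5 CPM with PF, a log2 fold change of 0.29 ± 0.12 with an adjusted p of 0.0925. Gclm was measured at 51.5, 48.2 and 52.8 CPM with vehicle and at 50.1, 51.2 and 57.7 CPM with PF. Its log2 fold change was 0.06 ± 0.10, with a 95% interval from −0.16 to 0.28. Gsr (chr8:33652523-33698163), glutathione reductase, was measured at 27.9, 25.1 and 23.9 CPM with vehicle and at 30.2, 28.2 and 31.7 CPM with PF. The groups of Gsr did not overlap, but the log2 fold change of 0.23 ± 0.095 had an adjusted p of 0.0997.

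Txnrd1 (chr10:82833951-82897712), the cytosolic thioredoxin reductase, was measured at 135, 133 and 156 CPM with vehicle and at 158, 149.6 and 161 CPM with PF. Its log2 fold change was 0.15 ± 0.077, with an adjusted p of 0.179. Srxn1 (chr2:152105516-152111376), the sulfiredoxin that restores overoxidized peroxiredoxins, was measured at 124, 109 and 119 CPM with vehicle and at 136, 117 and 122 CPM with PF. Its log2 fold change of 0.10 ± 0.081 did not pass, while it was 0.22 and passed after removal of the GC and length trend. Prdx1 (chr4:116685544-116700822), a peroxiredoxin that reduces hydrogen peroxide, was measured at 391, 429.9 and 355 CPM with vehicle and at 498, 503 and 538 CPM with PF. Every library with PF was above every library with vehicle, and the log2 fold change was 0.39 ± 0.078 with an adjusted p of 0.00683. Prdx1 has the lowest GC content of the 10 genes (44.5%), and after removal of the GC and length trend its log2 fold change was 0.01 and did not pass.

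In AMPKβ1-/- BMDMs PF changed 0 of the 10 genes, with adjusted p values of 0.982 or more and 0 members at an unadjusted p below 0.05, which 4.98% of tested genes reached. Of all tested genes 0.0554% were called by edgeR in this comparison, and DESeq2 and limma-voom, which called 48 and 21 genes over the whole table, also called 0 members. Of the members, 7 had log2 fold changes below 0, down to −0.16 for Srxn1, and 3 had values above 0, up to 0.32 for Nqo1, where 48.7% of tested genes were above 0. In Hmox1, Txnrd1, Srxn1 and Prdx1 all 3 libraries with PF were below all 3 with vehicle, as was the case for 6.28% of tested genes.

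Hmox1 was measured at 377, 372 and 388 CPM with vehicle and at 328, 341 and 362 CPM with PF in AMPKβ1-/- BMDMs. The log2 fold change was −0.14, with a 95% interval from −0.31 to 0.024. Srxn1 was measured at 137, 121 and 125 CPM with vehicle and at 109.9, 116 and 116 CPM with PF. Prdx1 was measured at 459, 490.3 and 506 CPM with vehicle and at 427, 443 and 443 CPM with PF, a log2 fold change of −0.15 with a 95% interval from −0.31 to 0.018. Nfe2l2, at 146, 200.1 and 202 CPM with vehicle and 222, 195 and 212 CPM with PF, had overlapping groups and a log2 fold change of 0.20 with an interval from −0.089 to 0.48.

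The response to PF differed between the genotypes for 1 of the 10 genes, where 0.416% of all tested genes passed. For Prdx1 the response in WT minus that in AMPKβ1-/- BMDMs was 0.54 ± 0.11 (log2), with an adjusted p of 0.0480. This call was close to the threshold: it was lost in 9 of 12 fits that left out 1 library each, at differences from 0.47 to 0.55, and kept only without WT with vehicle replicate 2, WT with PF replicate 1 or AMPKβ1-/- with vehicle replicate 1. It was also lost with DESeq2's size factors, where the difference was 0.54, and after removal of the GC and length trend, where it was 0.26. Of the other members, the differences were 0.34 for Gclc, 0.27 for Txnrd1, 0.26 for Srxn1, 0.21 for Nfe2l2 and 0.21 for Gsr, and none of these passed. With the trend removed the difference of Srxn1 was 0.35 and passed.

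AMPKβ1-/- BMDMs differed from WT BMDMs with vehicle in 7 of the 10 genes. Gclc, Gclm, Gsr, Txnrd1, Prdx1 and Nfe2l2 were higher and Keap1 was lower in AMPKβ1-/- cells. The changes lay between 1.24-fold and 1.52-fold upwards and at 0.665-fold for Keap1, so none went beyond 0.8 on the log2 scale, the size the study required, which 17.8% of tested genes reached with a call. In this comparison 59.7% of all tested genes passed, 29.7% higher and 30% lower, and the share of members is to be read against that. The median log2 fold change was 0.33 over the 10 members and −0.026 over all tested genes.

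Gclm was measured at 51.5, 48.2 and 52.8 CPM in WT and at 78.6, 71.9 and 81.1 CPM in AMPKβ1-/- libraries with vehicle, a log2 fold change of 0.60 ± 0.10 with an adjusted p of 0.00024. Gclc was measured at 19.7, 18.9 and 16.9 CPM in WT and at 27.9, 28.0 and 25.5 CPM in AMPKβ1-/- libraries. Its log2 fold change was 0.55 ± 0.12, with an adjusted p of 0.00102, so both subunits of the ligase were higher and without overlap. Gsr was measured at 27.9, 25.1 and 23.9 CPM in WT and at 32.8, 32.4 and 32.5 CPM in AMPKβ1-/- libraries, a log2 fold change of 0.35 ± 0.095 with an adjusted p of 0.00555. All 3 genes also passed in the same direction after removal of the GC and length trend, at 0.43, 0.31 and 0.41. Gclm has 2 transcripts and Gclc and Gsr have 1 each, so only for Gclm could the choice of transcript change GC content and length. The values of its longest transcript put Gclm at −0.45, which did not pass.

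Txnrd1 was measured at 135, 133 and 156 CPM in WT and at 204, 188 and 191 CPM in AMPKβ1-/- libraries with vehicle. The groups were apart, and the log2 fold change was 0.46 ± 0.077 with an adjusted p of 0.000212 and 0.49 with the trend removed. Prdx1 was measured at 391, 429.9 and 355 CPM in WT and at 459, 490.3 and 506 CPM in AMPKβ1-/- libraries, a log2 fold change of 0.31 ± 0.078 with an adjusted p of 0.00341. Its direction depended on the processing, as it was −0.26 and passed in the opposite direction after removal of the GC and length trend. Srxn1 was measured at 124, 109 and 119 CPM in WT and at 137, 121 and 125 CPM in AMPKβ1-/- libraries, with overlap and a log2 fold change of 0.12 ± 0.081 that did not pass. With the trend removed Srxn1 stood at 0.35 and passed.

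Nfe2l2 was measured at 108, 153 and 144 CPM in WT and at 146, 200.1 and 202 CPM in AMPKβ1-/- libraries with vehicle. The groups overlapped, since AMPKβ1-/- replicate 1 lay below WT replicate 2, and the log2 fold change was 0.44 ± 0.13 with an adjusted p of 0.0127. This call was lost without WT replicate 1, where the value was 0.30, and without AMPKβ1-/- replicate 2 (0.37) or replicate 3 (0.36). With the trend removed it was 0.15 and did not pass. Keap1 was measured at 165, 139 and 169 CPM in WT and at 113, 98.1 and 104 CPM in AMPKβ1-/- libraries. Every AMPKβ1-/- library was below every WT library, and the log2 fold change was −0.59 ± 0.095 with an adjusted p of 0.000169. Keap1 has the highest GC content of the 10 genes (59.8%), and with the trend removed its log2 fold change was −0.20, which still passed.

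Hmox1 was measured at 381, 347 and 399 CPM in WT and at 377, 372 and 388 CPM in AMPKβ1-/- libraries with vehicle. These values overlapped and the log2 fold change was 0.01, with a 95% interval from −0.15 to 0.18. With the GC and length trend removed Hmox1 was at 0.31 and passed. Nqo1 was measured at 4.06, 2.49 and 3.78 CPM in WT and at 2.37, 4.11 and 4.56 CPM in AMPKβ1-/- libraries, and its 95% interval ran from −0.44 to 0.65. In all, 6 members were called higher and 2 lower with the trend removed, where 34.4% of tested genes passed. Hmox1, Gclc, Gclm, Gsr, Txnrd1 and Srxn1 were the 6 higher, and Keap1 and Prdx1 were the 2 lower.

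**Figure D2:**
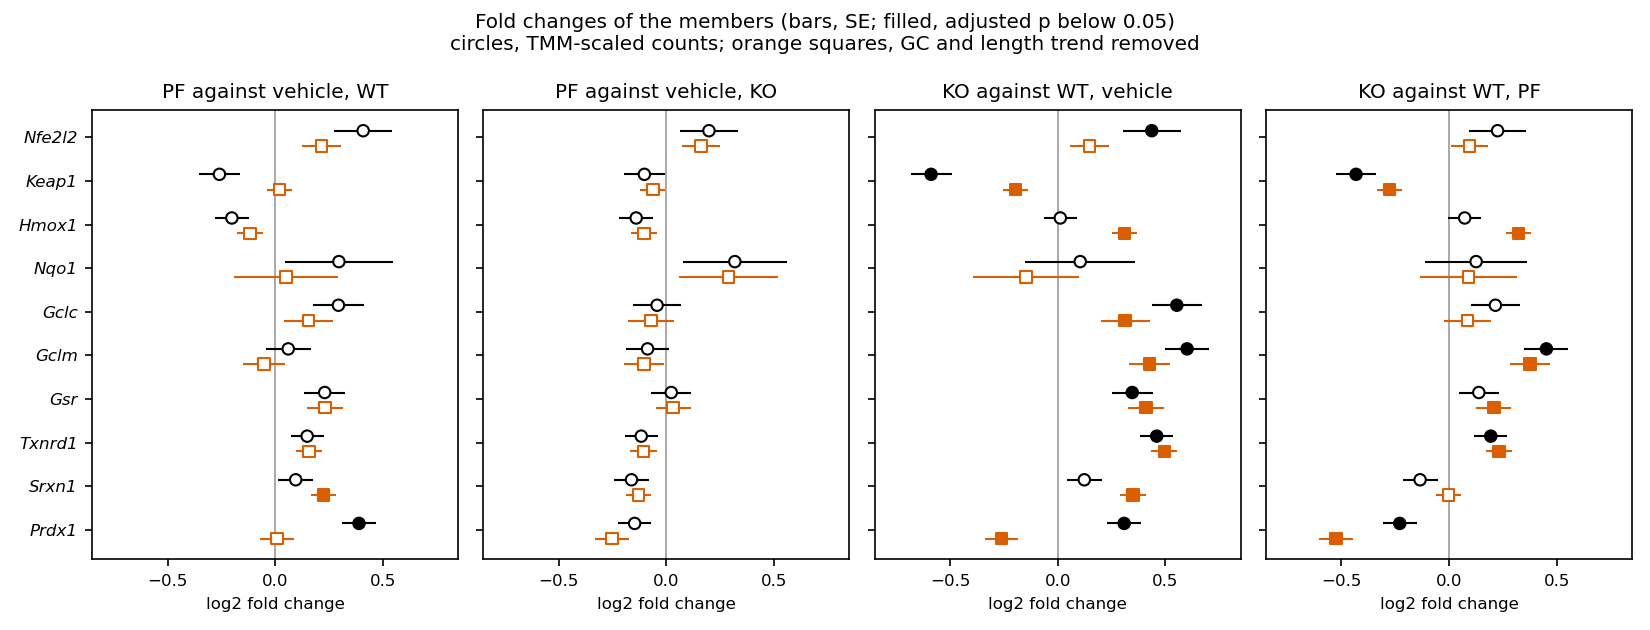
Log2 fold change (x axis) of the 10 genes (y axis) in 4 comparisons. Black circles are from TMM-scaled counts and orange squares after removal of the GC and length trend, bars are the SE, and filled symbols passed an adjusted p of 0.05. In AMPKβ1-/- against WT with vehicle, 7 circles and 8 squares are filled, and the symbols of Prdx1 lie on opposite sides of 0.

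With PF, AMPKβ1-/- BMDMs differed from WT BMDMs in 4 of the 10 genes, where 47.1% of all tested genes passed, 24.1% higher and 22.9% lower. Gclm and Txnrd1 were higher and Keap1 and Prdx1 were lower. Gclm was measured at 50.1, 51.2 and 57.7 CPM in WT and at 62.1, 73.4 and 82.2 CPM in AMPKβ1-/- libraries with PF, a log2 fold change of 0.45 ± 0.10 with an adjusted p of 0.00226. Keap1 was measured at 146, 131 and 119 CPM in WT and at 99.2, 101 and 92.7 CPM in AMPKβ1-/- libraries. The groups did not overlap, and the log2 fold change was −0.43 ± 0.095 with an adjusted p of 0.00193. With the trend removed Keap1 was at −0.28, which still passed.

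Prdx1 was measured at 498, 503 and 538 CPM in WT and at 427, 443 and 443 CPM in AMPKβ1-/- libraries with PF. Its log2 fold change was −0.23 ± 0.078 with an adjusted p of 0.0250, on the other side of 0 from the TMM-scaled comparison with vehicle. After removal of the GC and length trend it was −0.52, on the same side of 0 as with vehicle (−0.26), and both passed. Txnrd1, at 158, 149.6 and 161 CPM in WT and 174, 180.3 and 182 CPM in AMPKβ1-/- libraries, had a log2 fold change of 0.19 ± 0.077 with an adjusted p of 0.0483. The call of Txnrd1 was lost in 7 of 12 fits without 1 library, namely WT with PF replicate 1 or 2, AMPKβ1-/- with vehicle replicate 2 or 3 and each AMPKβ1-/- library with PF, at values from 0.16 to 0.21. That of Prdx1 was lost in 4 of 12, without WT with PF replicate 3 or any AMPKβ1-/- library with PF, at values from −0.24 to −0.19. Gclc, Gsr and Nfe2l2 had log2 fold changes of 0.22, 0.14 and 0.23 and did not pass, and Srxn1 stood at −0.13. With the trend removed Hmox1 (0.32) and Gsr (0.21) also passed, which gave 4 higher and 2 lower members, where 38.9% of all tested genes passed. Nfe2l2 passed from the libraries of the contrast alone (0.23), and Txnrd1 did not pass with no filter on low counts (0.19). Prdx1 did not pass with library size alone in place of TMM, where it was at −0.082, and Srxn1 was then at 0.016. The comparisons of the genotypes share their libraries with those of the treatments, so their values are not independent.

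The fold changes for PF in WT BMDMs and for the genotype with vehicle followed the GC content of the genes. Across 10786 tested genes with known GC content, Spearman's rho between GC content and log2 fold change was −0.71 for PF against vehicle in WT BMDMs and −0.76 for AMPKβ1-/- against WT BMDMs with vehicle, as a description across genes that share their libraries. The members ran from 44.5% GC in Prdx1 to 59.8% in Keap1, with Nqo1, Nfe2l2, Gclc and Gclm between 46.7% and 48.1%, Gsr and Txnrd1 at 50.1% and 50.3%, and Hmox1 and Srxn1 at 53.3%. Txnrd1 and Gsr, close to the median GC content of tested genes (50.6%), moved least in both of these comparisons when the trend was removed. Scaling by library size alone in place of TMM shifted the median log2 fold change of all tested genes to 0.18 with vehicle and to 0.15 with PF between the genotypes. It also raised the share of higher genes among those called from 49.7% to 72.9%, from 51.3% to 71.7% and, for PF in WT BMDMs, from 43.8% to 64%. The members called with that scaling were 9 with vehicle, 8 of them higher, where 54.5% of tested genes were called, and 6 with PF, 5 of them higher, where 44.4% were called.

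**Figure D3:**
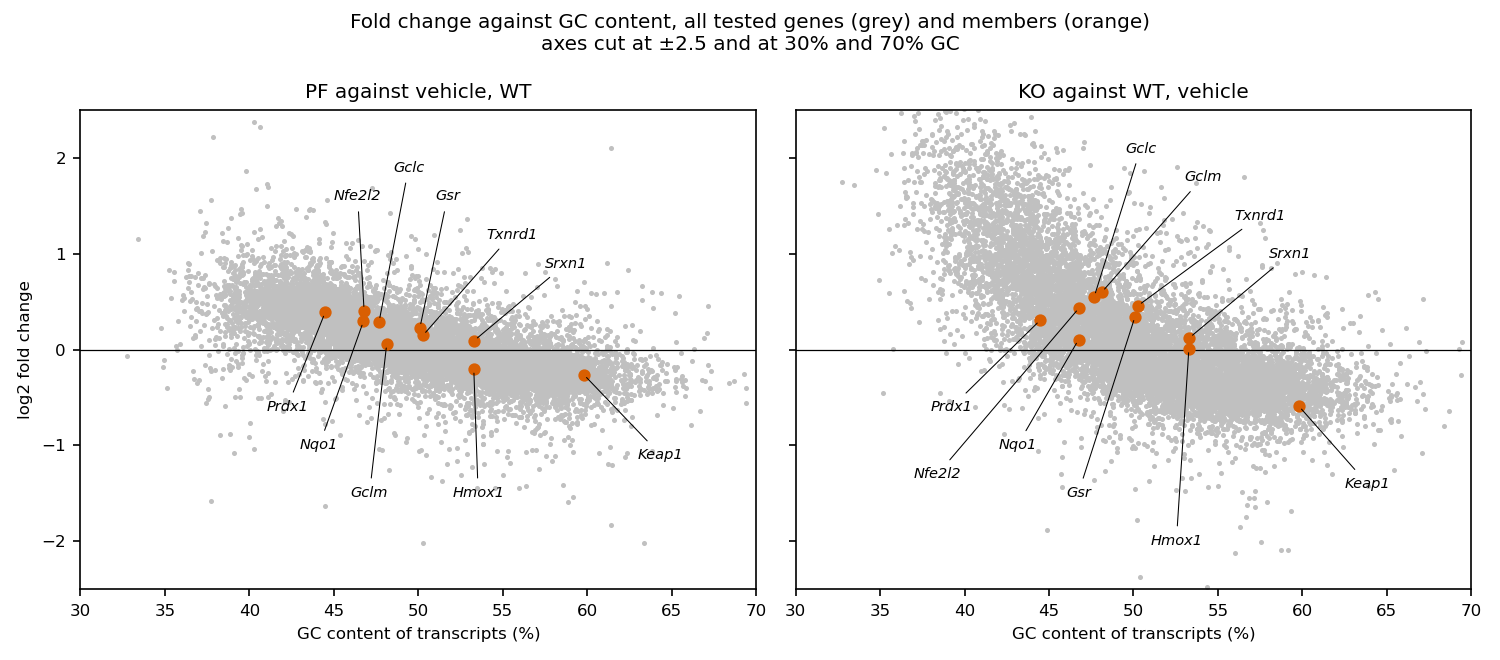
Log2 fold change (y axis) against mean GC content of the transcripts of a gene (x axis, %), for PF against vehicle in WT BMDMs (left) and AMPKβ1-/- against WT BMDMs with vehicle (right). Grey points are tested genes and orange points the 10 genes. Keap1 (59.8%) lies at the GC-rich end with log2 fold changes of −0.26 and −0.59, and Prdx1 (44.5%) at the GC-poor end with 0.39 and 0.31.

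The wider pathway was described with 86 further genes in 6 lists, of which 85 were tested. PF in WT BMDMs raised 5 of them and lowered 9, which is 16.5% called against 15.9% of all tested genes. In AMPKβ1-/- BMDMs 0 were called by edgeR, with 2 at an unadjusted p below 0.05 and 0 called by DESeq2 or limma-voom. These 2 were Maff, a small MAF partner of NRF2, at 0.51, and Pgd at −0.23. The response to PF differed between the genotypes for Esd alone, by 0.48 (log2, adjusted p 0.0480). With the trend removed this difference was 0.21 for Esd, without a call. In that setting 1 of the 85 genes was called higher, Fth1 (0.45), and 2 lower, among them Gpx1 (−0.48), where 1.7% of all tested genes passed. AMPKβ1-/- against WT with vehicle gave 17 higher and 39 lower genes (65.9% against 59.7% of all tested genes), and with PF 10 higher and 32 lower (49.4% against 47.1%). The median log2 fold change over the 85 genes was −0.044 for PF in WT BMDMs and −0.22 for the genotype with vehicle, against 0.19 and 0.33 over the 10 members. With the trend removed the medians of the 85 genes were −0.013 and −0.046, close to those of all tested genes (−0.0064 and −0.026), and those of the members 0.10 and 0.31. The calls among the 85 genes were then 1 higher and 6 lower for PF in WT BMDMs, 13 and 22 with vehicle and 15 and 26 with PF.

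Among the 22 genes that control NRF2, PF in WT BMDMs changed Sesn2 alone, which is 4.55% called against 15.9% of all tested genes. Sesn2, a sestrin that aids the breakdown of KEAP1, was at −0.48 ± 0.13 (log2, SE, adjusted p 0.0235). Cul3, the cullin of the KEAP1 ligase, was at 0.51 ± 0.21 and did not pass. The call of Sesn2 was lost without WT with vehicle replicate 1 (−0.43) or WT with PF replicate 2 (−0.43) or 3 (−0.37). It was also lost from the libraries of the contrast alone (−0.46), and Sesn2 was at −0.22 without a call with the trend removed. Cul3 passed without WT with PF replicate 1 (0.68), with DESeq2 (0.53) and with a replicate block (0.50), and was 0.069 with the trend removed. Between the genotypes with vehicle 6 of the 22 were higher and 6 lower, which is 54.5% called against 59.7% of all tested genes. With the trend removed 7 were higher and 4 lower, where 34.4% of all tested genes passed. Cul3 was measured at 10.5, 16.2 and 15.2 CPM in WT and at 28.9, 37.6 and 41.8 CPM in AMPKβ1-/- libraries, a log2 fold change of 1.36 ± 0.20. It was at 0.041 and did not pass after removal of the GC and length trend. Bach1, a repressor that competes with NRF2 for the same elements, rose by 0.94 ± 0.17, from 53.3, 69.2 and 81.0 CPM to 126, 133 and 133 CPM, and was at 0.39 and passed with the trend removed. Sqstm1, the autophagy receptor p62 that binds KEAP1, was lower by a log2 fold change of −0.51 ± 0.087, and −0.14 with the trend removed. With PF, Cul3 was at 1.05 and Bach1 at 0.82 in the same direction, while Rbx1, the RING subunit of the ligase, was at −0.63 and the coactivator Ep300 at 0.73. The direction of Cul3 with PF turned to −0.23, which passed, with the trend removed. In that setting Bach1 was at 0.38, Rbx1 at −0.44 and Ep300 at 0.37 with PF, and all passed.

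Of the 19 tested genes of glutathione supply and use, PF in WT BMDMs lowered 2 and raised none at the threshold. That is 10.5% called, against 15.9% of all tested genes. Gpx1, the cytosolic glutathione peroxidase, fell from 1138, 1002 and 877 CPM to 807, 743 and 654 CPM (log2 −0.45 ± 0.10, adjusted p 0.0116). Abcc1, an exporter of glutathione conjugates, fell by 0.36 ± 0.088 on the log2 scale. Gpx1 did not pass without WT with vehicle replicate 1 (−0.35) or WT with PF replicate 3 (−0.37). Abcc1 did not pass without WT with vehicle replicate 3 (−0.28) or WT with PF replicate 2 (−0.34) or 3 (−0.33). Neither gene passed from the libraries of the contrast alone (−0.44 and −0.34). Between the genotypes with vehicle 3 were higher and 9 lower, which is 63.2% called against 59.7% of all tested genes. The members Gclc, Gclm and Gsr were higher. With the trend removed 1 of the 19 was higher and 4 were lower, where 34.4% of all tested genes passed. Gstm1, a glutathione transferase, was measured at 155, 125 and 144 CPM in WT and 87.0, 76.6 and 81.6 CPM in AMPKβ1-/- libraries, a log2 fold change of −0.79 ± 0.097 with vehicle and −0.83 ± 0.098 with PF. Gpx4, which reduces lipid peroxides, was at −0.77 and −0.74. With the trend removed Gstm1 was at −0.46 and −0.49 and Gpx4 at −0.28 and −0.33, and all passed. Chac2, which degrades glutathione, was at 1.17 ± 0.37 with vehicle on 3 to 19 counts per library, at 0.94 without a call when WT with vehicle replicate 1 was left out, and at 0.014 without a call with the trend removed. Slc7a11, the cystine carrier that feeds glutathione synthesis, was at only 4 to 14 counts per library and passed no comparison.

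Of the 14 genes of the thioredoxin system and of peroxide or superoxide removal, PF in WT BMDMs raised Txn1, the cytosolic thioredoxin. That is 7.14% of the list called, against 15.9% of all tested genes. Txn1 rose from 65.9 CPM in each library to 72.7, 105 and 98.9 CPM. The log2 fold change was 0.49 ± 0.11 with an adjusted p of 0.0127, and 0.21 without a call with the trend removed. The call was also lost without WT with PF replicate 2 (0.38) or 3 (0.44), and Prdx2, at −0.25, passed without WT with PF replicate 1 (−0.30), with a replicate block (−0.25) and with the trend removed (−0.28). Between the genotypes with vehicle 3 were higher and 7 lower, with Txnip, which binds and inhibits thioredoxin, at −0.51 ± 0.070 and Prdx2 at −0.51 ± 0.090. In that comparison 71.4% of the list was called, against 59.7% of all tested genes. With the trend removed 3 were higher and 4 lower, where 34.4% of all tested genes passed. With PF, Prdx6 was at −0.51 and Txnip at −0.41. With the trend removed Txnip was at −0.61 and Prdx2 at −0.35 with vehicle, and Prdx6 at −0.34 and Txnip at −0.43 with PF.

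NADPH supplies the electrons for Gsr and Txnrd1. Of the 9 genes of its supply, PF in WT BMDMs lowered 4 and raised 1, which is 55.6% called against 15.9% of all tested genes. With the trend removed 1 was lower and 0 higher, where 7.26% of all tested genes passed. From the libraries of the contrast alone 1 was called, and 0 to 6 were called without 1 library. G6pdx and Pgd, dehydrogenases of the pentose phosphate pathway, were at −0.35 ± 0.088 and −0.36 ± 0.097. G6pdx did not pass without WT with vehicle replicate 1 (−0.25) or WT with PF replicate 2 (−0.33) or 3 (−0.28). Pgd did not pass without WT with vehicle replicate 1 (−0.28) or 3 (−0.35) or WT with PF replicate 2 (−0.36) or 3 (−0.30). It was −0.20 without a call with the trend removed. Neither G6pdx (−0.33) nor Pgd (−0.34) passed from the libraries of the contrast alone. Between the genotypes with vehicle 2 were higher and 5 lower, with the pathway genes Tkt at −0.70 ± 0.096 and Pgls at −0.75 ± 0.11. With PF, Tkt and Pgls were at −0.48 and −0.47. With the trend removed these 2 genes were at −0.48 and −0.34 with vehicle and at −0.37 and −0.20 with PF, and still passed. With vehicle 77.8% of the list was called, against 59.7% of all tested genes. With the trend removed 1 gene was higher and 3 were lower, where 34.4% of all tested genes passed. Of the 12 genes of carbonyl and quinone detoxification, PF in WT BMDMs lowered Ephx1, an epoxide hydrolase, by 0.56 ± 0.12 and raised Esd, an esterase, by 0.34 ± 0.070. That was 16.7% of this list called, against 15.9% of all tested genes. The value of Esd was 0.032 without a call with the trend removed. Esd also did not pass from the libraries of the contrast alone (0.35). Between the genotypes with vehicle 2 were higher and 6 lower, with the aldehyde dehydrogenase Aldh2 at −0.61 ± 0.080 and the aldehyde reductase Akr1a1 at −0.59 ± 0.087. With PF they were at −0.48 and −0.56. With the trend removed Aldh2 and Akr1a1 were at −0.26 and −0.25 with vehicle and at −0.31 and −0.28 with PF, and still passed. With vehicle 66.7% of this list was called, against 59.7% of all tested genes. With the trend removed 1 gene was higher and 4 were lower, where 34.4% of all tested genes passed.

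Of the 9 genes of heme breakdown and iron storage, PF in WT BMDMs raised 2 and lowered 1. That is 33.3% called, against 15.9% of all tested genes. With the trend removed 1 was called, where 7.26% of all tested genes passed. Slc48a1, a heme transporter, was at −0.35 ± 0.075 and did not pass without WT with PF replicate 3 (−0.30) or with the trend removed (−0.13). It also did not pass from the libraries of the contrast alone (−0.34). Slc40a1, the iron exporter ferroportin, was at 0.51 ± 0.16. Among the 12 fits without 1 library its call was lost in 9, at values from 0.38 to 0.51. It was kept only without WT with vehicle replicate 2, WT with PF replicate 1 or AMPKβ1-/- with vehicle replicate 1. The call was also lost from the libraries of the contrast alone (0.53) and with the trend removed (0.12). Between the genotypes with vehicle 1 was higher and 6 lower, with Ftl1, the ferritin light chain, at −0.49 ± 0.093 and the biliverdin reductase Blvrb at −0.41 ± 0.083. Neither passed with the trend removed, at −0.012 and 0.079. With vehicle 77.8% of this list was called, against 59.7% of all tested genes. With the trend removed 0 genes were higher and 3 were lower, where 34.4% of all tested genes passed. With PF, Fth1, the ferritin heavy chain, was measured at 16440, 19316 and 17897 CPM in WT and at 9663, 10652 and 9630 CPM in AMPKβ1-/- libraries, a log2 fold change of −0.84 ± 0.096 that was at −0.48 with the trend removed. Ftl1 was at −0.56 with PF, and at −0.11 without a call with the trend removed.

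**Figure D4:**
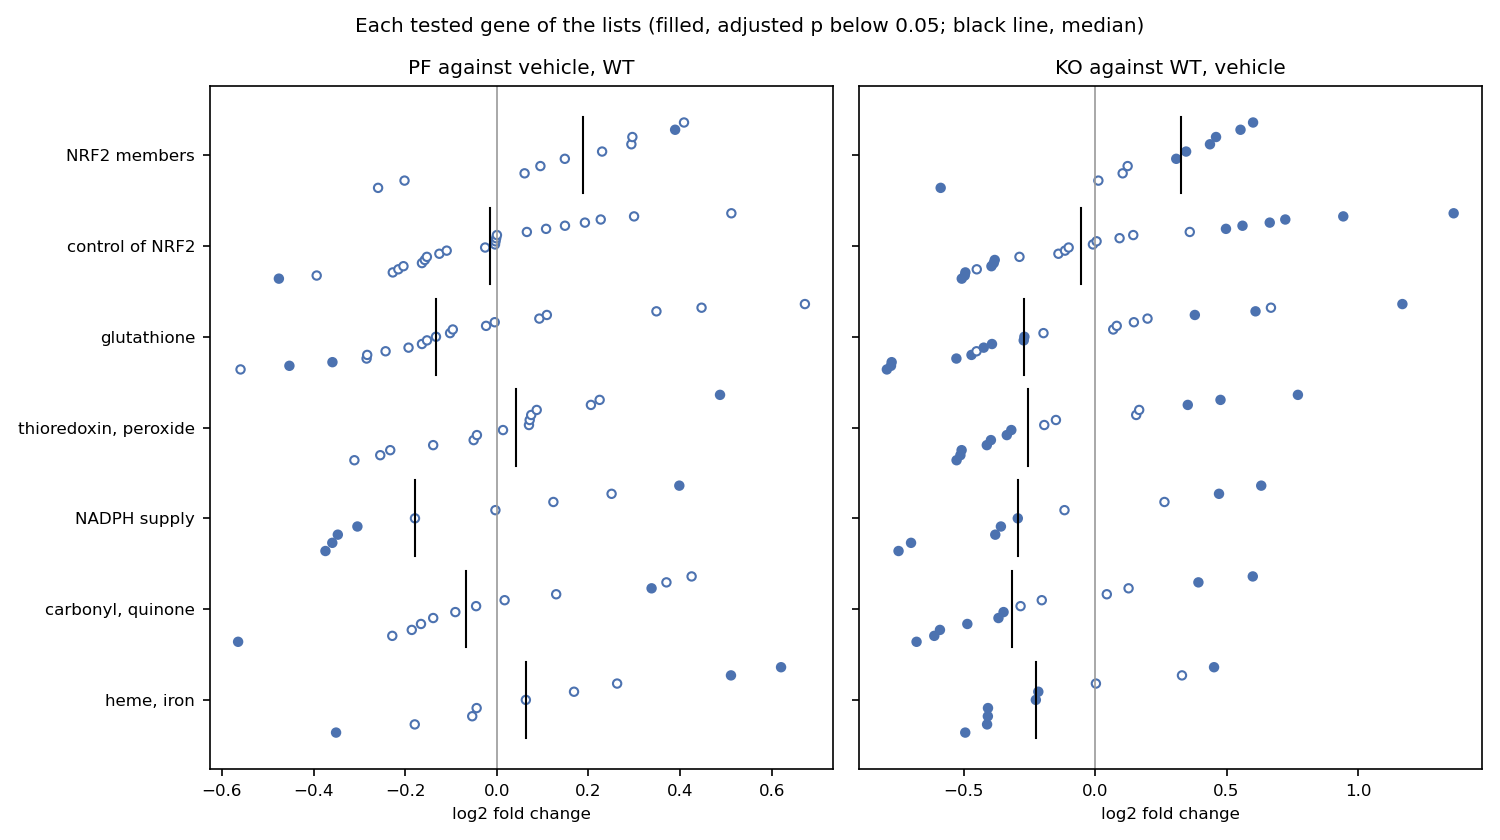
Log2 fold change (x axis) of each tested gene of the members and of the 6 lists (y axis) for PF against vehicle in WT BMDMs (left) and AMPKβ1-/- against WT BMDMs with vehicle (right). Filled points passed an adjusted p of 0.05 and black lines are medians. On the right the median of the 10 members lies at 0.33 and the medians of the lists between −0.32 and −0.055. After removal of the trend in GC content and length, which is not drawn, they were 0.31 and between −0.14 and 0.044.

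The expression patterns most like those of Nfe2l2 and Keap1 were found by the Euclidean distance between centred log2 CPM over the 12 libraries. The GC and length trend was not removed for these distances, and its part in them was not tested. For Nfe2l2, which spanned 1.03 on the log2 scale, the nearest genes were Pdha1 (distance 0.22), Atg12 (0.26) and Hspa4 (0.26). Pdha1 encodes a subunit of pyruvate dehydrogenase, Atg12 an autophagy conjugate and Hspa4 a chaperone. For Keap1, which spanned 0.87, they were Ddx24 (0.14), an RNA helicase, Grn (0.15), the lysosomal progranulin, and Ccdc22 (0.16).

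Some reads may be shared with other loci. The locus of Gclm overlaps the processed pseudogene Gm6061 on the same strand and that of Keap1 an antisense gene, Gm16754, neither of which had a row in the count table. Txnrd1 overlaps Eid3, which reached 7 counts at most. How the counting split such reads was not tested.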

How the data were processed

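RNA from WT and AMPKβ1-/- BMDMs given vehicle or PF for 6 h was sequenced as 12 directional libraries. Reads were trimmed with Trim Galore before quantification in Salmon by the authors, and the deposited values are estimated counts per gene, as whole numbers without normalization. Versions, genome build and Salmon's options are not given in the sources used here. Count columns were assigned to groups by name, with 0 left unused. Deviations of same-numbered libraries correlated between −0.17 and 0.32, and the shared numbers were therefore given no role in the design. No libraries were identical (chi-square per degree of freedom 2.16 to 17.8 between replicates).

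The test was edgeR 4.0.16's robust quasi-likelihood test in R 4.3.3, with TMM and filterByExpr, on 4 group means over all 12 libraries and 5 contrasts. Adjusted p values (Benjamini-Hochberg) cover 10822 genes, a call is one below 0.05, and SE derived from the F statistic are approximate, and 95% intervals take the t quantile at the test's degrees of freedom. A count of 0 allows up to 3 counts, or 0.196 to 0.321 CPM, for counting error only. Alternatives were DESeq2's size factors or library size alone, no filter or 10 counts in every library, DESeq2 1.42.0, limma-voom (limma 3.58.1), the libraries of a contrast alone, a replicate block, leaving out each library, and an offset for GC content and length (natural splines, 5 degrees of freedom; GENCODE M21, GRCm38). Symbols matched M21 for 12703 genes, older symbols for 194, and 63 did not match. GC content was known for 99.7% of tested genes. The offset from the longest transcript was added after seeing the data. The test was checked on simulated counts with 200 changed genes in WT with PF. These held no GC trend and no genotype difference, so the check does not bear on either.

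The members, lists and tests were chosen with earlier results of these data known. Named are the members, Prkab1, markers, list genes called beyond 0.8 or among the 2 smallest p of a list in a contrast, and the 3 genes nearest in pattern to Nfe2l2 and Keap1. Slc7a11 was named under this rule from PF in AMPKβ1-/- BMDMs.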

Additional observations from a re-analysis of the deposited data

Results flagged for a closer look

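The response to PF differed between the genotypes for 2 genes, by the test of the difference itself. For Prdx1 the log2 response was 0.39 in WT and −0.15 in AMPKβ1-/- BMDMs, a difference of 0.54 with an adjusted p of 0.0480 by edgeR's quasi-likelihood test. Over the alternative settings the adjusted p of this difference ranged from 0.00144 to 0.374. For Esd, an esterase of the carbonyl and quinone list, the log2 response was 0.34 in WT and −0.15 in AMPKβ1-/- BMDMs, a difference of 0.48 with an adjusted p of 0.0480, which ranged from 0.00114 to 0.572 over the alternatives. The call of Esd was lost in 9 of 12 fits without 1 library. Both genes were called by edgeR among the 0.416% of tested genes that passed, and their differences were 0.26 and 0.21, without a call, with the GC and length trend removed.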

How the results depend on the processing

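The count of members called for PF in WT BMDMs was 1, and 2 with DESeq2's size factors, DESeq2, limma-voom or a replicate block. It was 4 with library size alone, where 15.1% of all tested genes passed, and 0 with a log2 fold change beyond 0.8 as well. Without 1 library it was 1 to 4, while calls over all genes ran from 129 higher and 217 lower to 1622 and 1621. For the difference between genotypes the count of members was 1, and 0 with DESeq2's size factors or beyond 0.8, and 0 to 1 without 1 library. Between genotypes it was 0 beyond 0.8 with either treatment, and 6 to 7 with vehicle and 2 to 4 with PF without 1 library. Calls over all genes then ran from 2686 higher and 2598 lower to 3305 and 3341 with vehicle. With PF they ran from 2080 and 1830 to 2830 and 2622. The other lists had 14 calls for PF in WT BMDMs, and 4 with the libraries of the contrast alone, 7 with the GC and length offset, 8 with the offset from the longest transcript and 2 to 28 without 1 library. For the difference they had 1, and 0 with DESeq2's size factors or the replicate block, 3 with either offset and 0 to 3 without 1 library. With vehicle they had 56, and 35 with the offset. The replicate block, for numbers that are only shared in the column names, moved the members' count as given and changed the call of Nfe2l2 (0.42) alone among the members. Over all genes, PF in WT BMDMs gave 210 higher and 209 lower with the libraries of the contrast alone, against 756 and 969, and 7.26% were called with the offset.

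Directions turned with the offset and with that from the longest transcript, in this order where 2 values are given. For PF in WT these were Keap1 (0.019), Gclm (−0.053, −0.33) and, from the longest transcript, Prdx1 (−0.022). For the difference they were Keap1 (0.082, 0.051) and, from the longest transcript, Gclm (−0.035). With vehicle they were Nqo1 (−0.15, −0.075), Prdx1 (−0.26, −0.48), Blvrb (0.079, 0.043) and, from the longest transcript, Gclm (−0.45) and Chac2 (−0.041). With PF they were Cul3 (−0.23, −0.27) and, from the longest transcript, Gclm (−0.41) and Srxn1 (0.028). Library size alone turned Nqo1 for the difference (0.042) and Srxn1 with PF (0.016). Without 1 library, values near 0 turned for PF in AMPKβ1-/- BMDMs in Gclc (−0.090 to 0.010), Gclm (−0.19 to 0.013) and Gsr (−0.020 to 0.051), for the difference in Nqo1 (−0.22 to 0.20), and with vehicle in Hmox1 (−0.042 to 0.057) and Nqo1 (−0.090 to 0.33). The stricter motif was in 2 members. Lengths of the longest transcript gave 43.7 for Keap1, 9.10 for Gclm, 38.9 for Txnrd1 and 171 CPM per kb for Prdx1. The cause was not tested. Low counts limit Nqo1, Chac2 and Slc7a11.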
